A study of Rattus norvegicus with 6 samples.

Results

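Integrins, cadherins and protocadherins, the membrane receptors with which cells hold on to matrix and to each other, were followed in synovial fibroblast-like cells of arthritic rats under 3 serological settings. Members were all rows of the deposited transcript table with a symbol of the form Itga or Itgb followed by a number or 1 letter, Cdh followed by a number, or Pcdh followed by anything. This gave 84 genes with 1 row each, out of 16499 symbols and 17221 transcript rows. They comprised 10 integrin alpha chains, 7 integrin beta chains, 19 cadherins, 8 non-clustered protocadherins and 40 clustered protocadherins. The rule used symbols and no measured value.

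The cells were grown from the joint lining of 2 female Wistar rats with collagen-induced arthritis, sampled before any therapy, and adherent cells were expanded in culture. The culture of each rat was split over media that held fetal bovine serum (FBS), serum from untreated rats (MS−), or serum from rats given needle stimulation for 18 days (MS+, called acupuncture in the labels). All 6 libraries thus came from arthritic cells, 2 per setting and 1 per rat. One label field of the MS− samples calls the rats healthy, whereas the title and the disease field say arthritic. The title uses the same words for the cells in every setting, so it does not tell the health of the serum donors. The study describes the MS− donors as untreated rats with induced arthritis. The number of animals behind each serum is not given in the sources used here, so the treatment of the donors and the individual serum cannot be told apart. The study's methods place the draw of MS− serum ahead of therapy and that of MS+ serum at day 18. The treatment and the time of the draw thus cannot be told apart either. The replicate was the rat that gave the cells, and with 2 rats the p-values describe the spread between these cultures.

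Integrins are pairs of 1 alpha and 1 beta chain that bind fibronectin, collagens or laminins outside the cell and, through talin, kindlins and vinculin, the actin cytoskeleton inside it. Cadherins bind like molecules on the neighbouring cell in the presence of calcium and are tied to actin by catenins. Cadherin-11 is known as the cadherin of synovial fibroblasts, which it joins into the lining layer. Protocadherins are a related family without the catenin-binding tail, and many lie in tandem clusters (alpha, beta and gamma). In the alpha and gamma clusters, alternative first exons are spliced to shared last exons.

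Depth was 5463316 to 5991889 reads per library, and 3 reads, taken as the limit of detection in a library, amounted to 0.491 to 0.551 CPM. CPM are read counts brought to a common library size, here by the TMM method, without correction for length, so they compare 1 gene between libraries and not genes with each other. All 10 fibroblast markers had reads, and their summed level was 80467 to 87687 CPM in FBS, 62482 to 64802 in MS− and 70489.8 to 73466 in MS+. Prg4, the lubricin gene of the lining layer, was low at 1.27 to 3.32 CPM. Of 10 leukocyte markers, 8 had no read, and the list summed to 0.901 to 2.39 CPM. Among the 8 was Ptprc with 5 rows, where reads shared by overlapping rows would have been dropped. The endothelial list, with 4 of 6 genes in the table, and the epithelial list summed to at most 1.47 and 1.28 CPM. In bulk RNA, fewer cells of a kind and less RNA per cell cannot be told apart.

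The upstream sequences of 3 members that are named in the contrasts between sera below are given first. Itga8 encodes an integrin alpha chain, and Pcdh20 and Pcdh18 encode non-clustered protocadherins. The 250 bases before each RefSeq start site are written 5′ to 3′ on the gene's strand in build GRCr8, with CG dinucleotides in capitals. The promoter table matched 54 of the 84 members. The window of Itga8 was chr17:80410634-80410883 (minus strand), that of Pcdh20 chr15:70840299-70840548 (minus strand) and that of Pcdh18 chr2:135996827-135997076 (minus strand).
Itga8: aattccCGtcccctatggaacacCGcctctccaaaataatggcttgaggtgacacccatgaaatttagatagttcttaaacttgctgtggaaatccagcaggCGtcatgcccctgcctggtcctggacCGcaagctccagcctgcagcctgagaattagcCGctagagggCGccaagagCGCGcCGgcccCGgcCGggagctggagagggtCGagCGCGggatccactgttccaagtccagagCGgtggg
Pcdh20: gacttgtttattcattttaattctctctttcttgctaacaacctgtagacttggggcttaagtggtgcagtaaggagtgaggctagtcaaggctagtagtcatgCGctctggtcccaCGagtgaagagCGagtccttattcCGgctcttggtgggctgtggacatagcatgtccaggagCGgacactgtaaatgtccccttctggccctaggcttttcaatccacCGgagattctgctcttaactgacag
Pcdh18: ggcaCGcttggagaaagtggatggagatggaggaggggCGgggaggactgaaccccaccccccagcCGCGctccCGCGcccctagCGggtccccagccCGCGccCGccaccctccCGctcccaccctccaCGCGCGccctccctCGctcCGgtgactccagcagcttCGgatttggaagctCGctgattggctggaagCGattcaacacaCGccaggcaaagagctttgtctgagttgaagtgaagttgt
G and C made up 59.6% of the Itga8 window with 15 CG dinucleotides, 49.2% of the Pcdh20 window with 6, and 66.0% of the Pcdh18 window with 20. The medians over all 33469 promoters were 51.2% and 5. Both strands were searched for AP-1 (TGANTCA), TEAD (CATTCC), CRE (TGACGTCA) and E-box (CACGTG) letters and for the CArG box of serum response factor, and no match was found in any of these windows. In all promoters of the same length these were found in 6.34%, 12.1%, 1.59%, 5.59% and 1.5%, respectively. The windows say nothing on which factors act on these genes.

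Reads were found for 72 of the 84 members. In each of the 6 libraries 39 members reached 3 reads, 18 did so in some libraries, and 15 never exceeded 2 reads. No read was found for 12 members, which allows a level of up to 3 reads per library. The filter of 1 CPM in both libraries of a setting was passed by 42 members, 29 of them in each setting and 13 in some settings only. Those 42 were 7 integrin alpha chains, 4 integrin beta chains, 4 cadherins, 4 non-clustered and 23 clustered protocadherins.

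**Figure D1:**
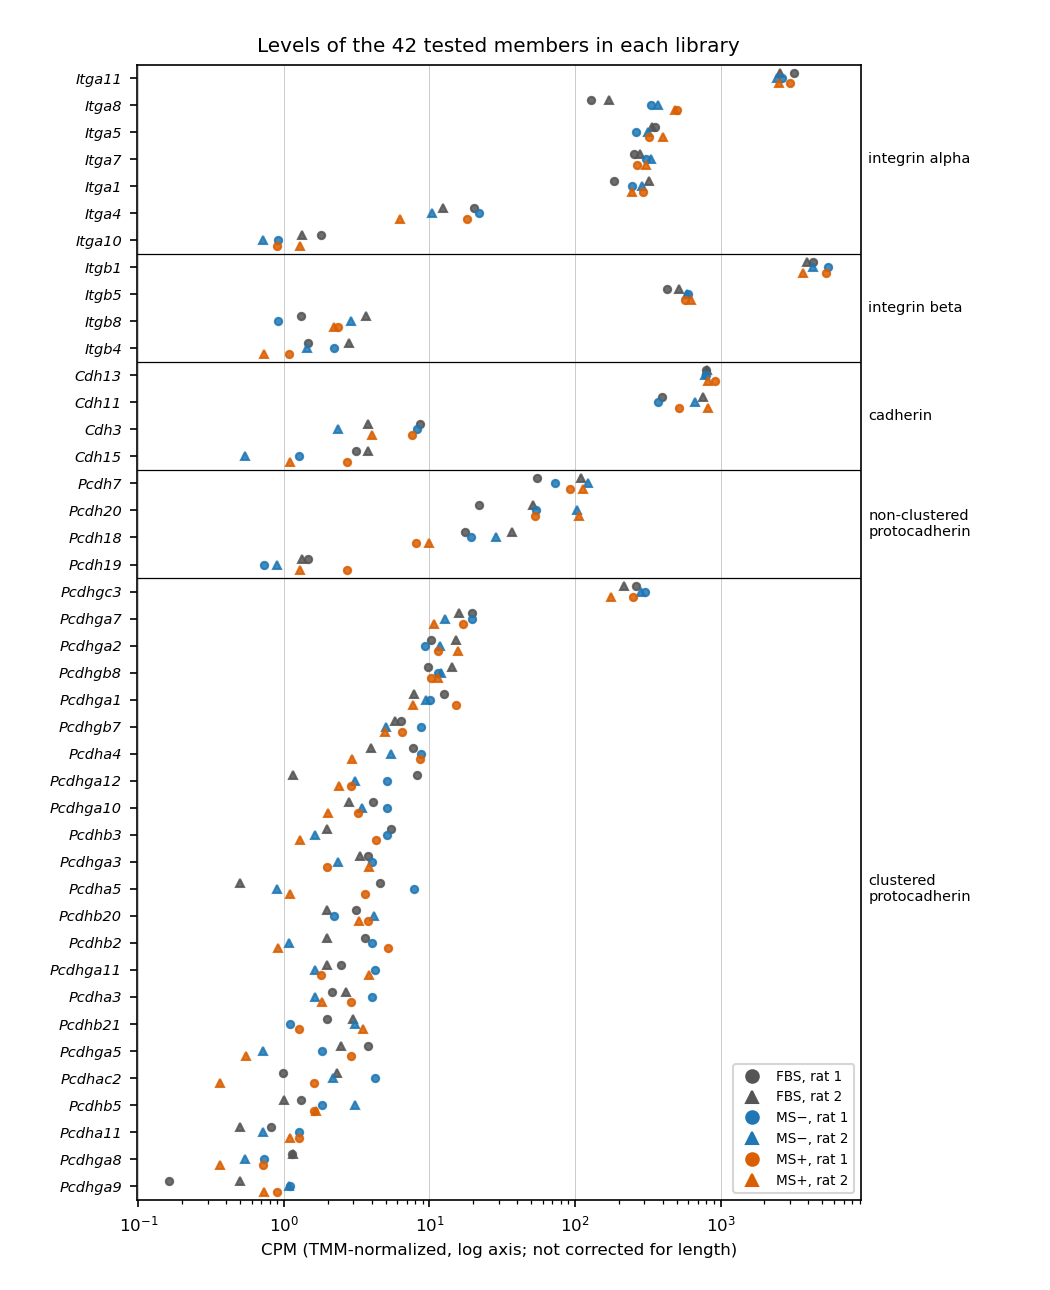
CPM of the 42 tested members in each of the 6 libraries, on a log axis, with circles for rat 1 and triangles for rat 2 and colours for the serum. Members are grouped by family and sorted by mean CPM, which is not corrected for length. The points of Itga8 are split by serum, with 128 to 172 CPM in FBS and 489 to 498 CPM in MS+, while those of Cdh11 are split by rat.

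Differences were tested with limma over 9820 features on log2(CPM + 1), and a member was called at a Benjamini-Hochberg adjusted p under 0.05 over all of them. Since both rats gave cells to every setting, the same fit was also run with the rat as a block. Of the 42 members, 1 was called between MS+ and FBS (Itga8, higher), where 9.61% of all features were called. Again 1, Itga8, was called between MS− and FBS (4.81% of all features). Between MS+ and MS−, limma called 0 members (0.0204% of all features), as did edgeR, limma-voom and DESeq2 on the recovered reads, while 4 had an unadjusted p under 0.05 (14.7% of all features). At that unadjusted threshold there were 3 members between MS+ and FBS (27.5% of all features) and 3 between MS− and FBS (21.1%). With the rat as a block, 6 members were called in MS+ against FBS (28.2% of all features), 7 in MS− against FBS (20.5%), among them Pcdhga5, which passed the filter only through FBS, and 4 in MS+ against MS− (10.1%). As shares of the 42 members these were 14.3%, 16.7% and 9.52%, each below the share of all features.

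A looser rule (a 2-fold change at an unadjusted p under 0.05, with 1 CPM or more on average) was met by 2 members in each comparison. Itga8 (higher) and Pcdh18 (lower) met it between MS+ and FBS (5.3% of all features), Itga8 (higher) and Cdh15 (lower) between MS− and FBS (3.62%). Pcdh18 (lower) met it between MS+ and MS− (1.24%), as did Pcdhac2 (lower). Pcdhac2 passed the filter only through MS−, where it was high. The filter favours such a difference, so meeting the rule is no support for it. The median log2 difference of the 42 members was 0.00 for MS+ minus MS−, -0.03 for MS+ minus FBS and -0.02 for MS− minus FBS. Over all features the medians were -0.01, 0.00 and 0.01. Both rules depended on single libraries, as the counts between MS+ and FBS moved when 1 library was left out.

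**Figure D2:**
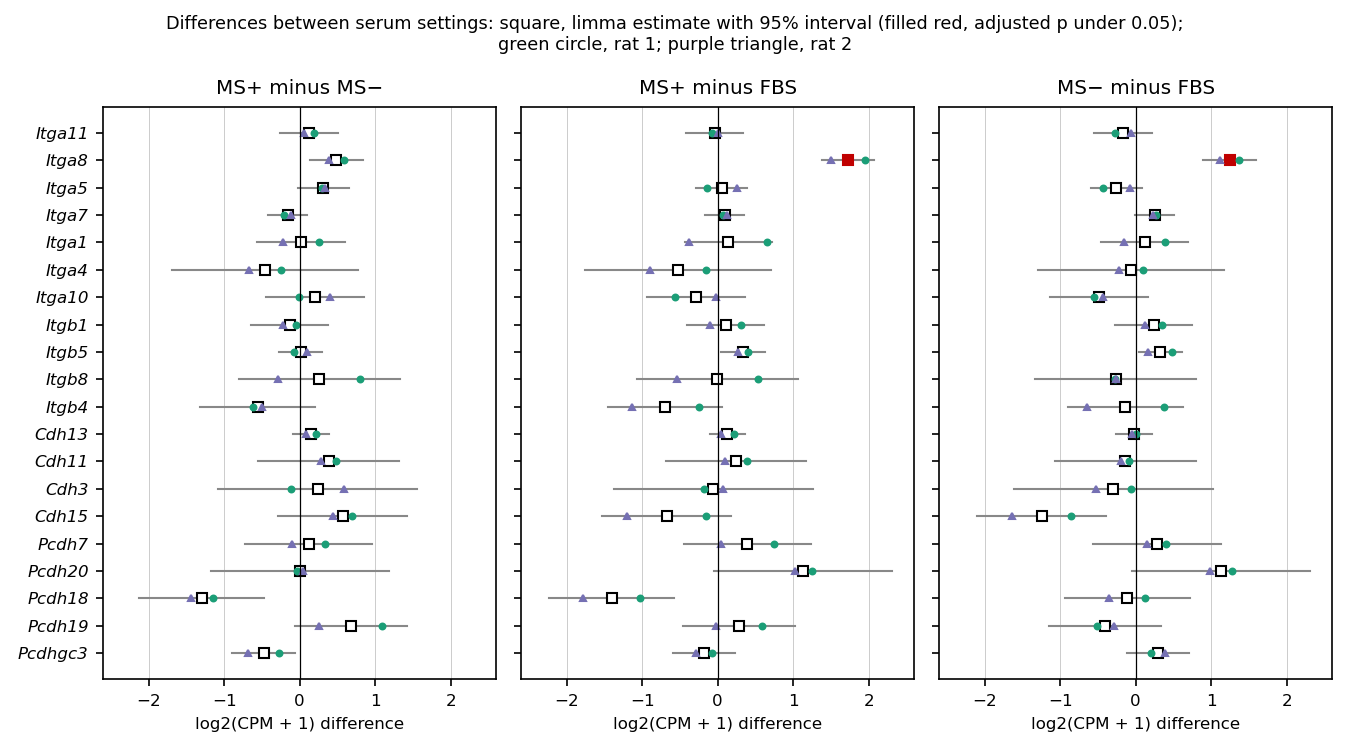
Differences between settings for 20 members, on the log2(CPM + 1) scale, with 1 panel per comparison. Squares are limma estimates with 95% intervals (filled red at adjusted p under 0.05 without the block), and the small symbols are the differences within rat 1 (circle) and rat 2 (triangle). Itga8 is filled red in both FBS comparisons, and for Pcdh20 both rats lie near 1 although the interval reaches 0.

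Among integrin alpha chains, Itga8 stood out by its levels. The alpha 8 chain pairs with beta 1, binds ligands with an RGD motif such as fibronectin and nephronectin, and is known from kidney mesangium, smooth muscle and myofibroblasts. Itga8 had 128 and 172 CPM in FBS (rat 1 and rat 2, the order kept throughout), 332 and 374 CPM in MS−, and 498 and 489 CPM in MS+. The 3 settings did not overlap, with FBS lowest and MS+ highest in the cells of both rats. Relative to FBS, Itga8 rose by 1.73 ± 0.15 on the log2 scale (SE) in MS+ and by 1.24 ± 0.15 in MS− (limma adjusted p = 0.00342 and 0.00749). The ratio of means was 3.29 and 2.36.

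These calls for Itga8 passed with the rat as a block (limma adjusted p = 4.83e-09 and 2.64e-07). Over the 16 alternatives the adjusted p reached 0.0509 for MS+ against FBS, without the MS+ library of rat 1, and 0.0593 for MS− against FBS, without the MS− library of rat 2. Between the rat sera, Itga8 was 0.48 ± 0.15 (log2, SE) higher in MS+, by 0.58 in rat 1 and 0.38 in rat 2. This did not pass (limma adjusted p = 0.226), but did with the block (0.00482; range over alternatives 0.00313 to 0.560).

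The smooth muscle markers did not share 1 order. Myh11, smooth muscle myosin, was ordered like Itga8, at 625 and 766 CPM in FBS, 881 and 936 in MS−, and 972 and 1056 in MS+. Notch3, a receptor of mural cells, ran the other way in both rats, at 73.2 and 116 CPM in FBS, 40.2 and 112 in MS−, and 30.6 and 85.7 in MS+. Cnn1, calponin, at 307 to 372 CPM, and Tagln, transgelin, at 7332 to 9764 CPM, overlapped between all settings. The summed level of the list was 8884 to 10814 CPM in FBS, 8763 to 10072 in MS− and 8833 to 10324 in MS+, mostly from Tagln, with 5 of 6 genes in the table and Rgs5, a pericyte gene, at 0 in every library. These sums overlapped between settings. The part of smooth muscle-like cells in the Itga8 result was not tested.

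**Figure D3:**
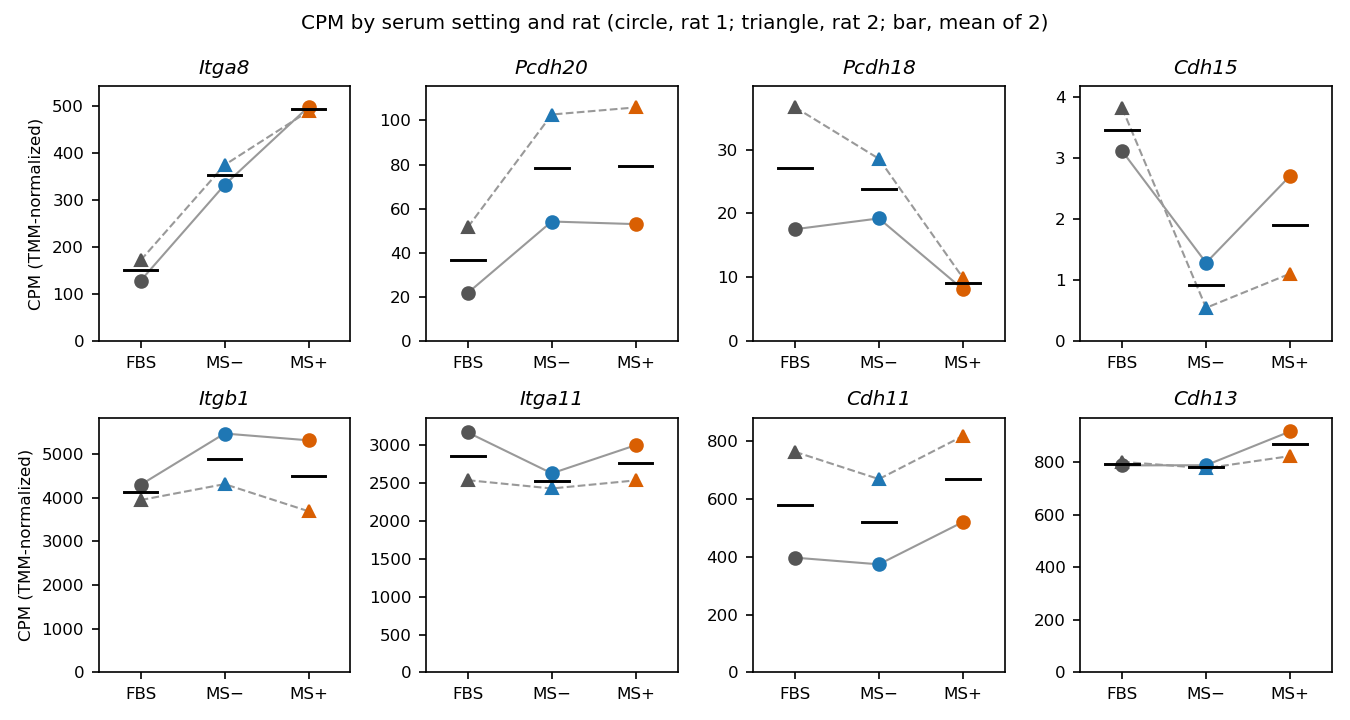
CPM of 8 members by serum, on linear axes that start at 0, with circles and full lines for rat 1, triangles and dashed lines for rat 2, and bars for the mean of the 2 libraries. Itga8 is lowest in FBS and highest in MS+ in both rats, Pcdh18 is at 8.11 and 9.91 CPM in MS+, and Cdh11 keeps the distance between the rats in each serum.

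The other alpha chains gave no call without the block. Itga11, a collagen-binding chain of mesenchymal cells, had 3171 and 2540.4 CPM in FBS, 2631 and 2431 in MS−, and 3003 and 2538 in MS+. Its settings overlapped, and the difference between MS+ and FBS had a 95% interval of -0.42 to 0.34 (log2). Itga5, the alpha chain of the fibronectin receptor, had 354 and 337 CPM in FBS, 262 and 319 in MS−, and 321 and 401 in MS+. MS+ lay above MS− by 0.29 in rat 1 and 0.33 in rat 2 (log2), and MS− lay below FBS in both rats without overlap. None of the 3 contrasts of Itga5 passed in limma, with or without the block (limma adjusted p = 0.377 for MS+ against MS−, and 0.0502 with the block; range 0.046 to 0.769).

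Itga7, a laminin-binding chain known from muscle, was examined after its values were seen, because it passed with the block in 1 contrast. It had 254 and 281 CPM in FBS, 307 and 330.3 in MS−, and 266 and 305 in MS+. MS− was above FBS without overlap, by 0.25 ± 0.11 (log2, SE; limma adjusted p = 0.245, and 0.0358 with the block; range 0.0358 to 0.613). Its row overlaps Mettl7b on the opposite strand, and strand use in the counting was not stated. Itga1, the other collagen-binding chain with ample reads among the members, ranged from 186 to 319.8 CPM with overlap of all settings.

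Itga4, which with beta 1 binds fibronectin and VCAM1, had 20.3 and 12.4 CPM in FBS, 21.8 and 10.5 in MS−, and 18.2 and 6.24 in MS+. In each serum the cells of rat 1 had more than those of rat 2. Itga10, a chain of cartilage, had 4 to 11 reads per library. The leukocyte chains Itgad, Itgal and Itgam had at most 3 reads, 2 reads and 0 reads in a library.

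Integrin beta chains were led by the common partner of most alpha chains, Itgb1. Itgb1 had 4298 and 3948 CPM in FBS, 5472 and 4313 in MS−, and 5316 and 3691 in MS+. The rats differed in each serum, and MS+ overlapped both other settings. No contrast of Itgb1 passed, with or without the block. MS+ minus FBS was 0.10 (log2, 95% interval -0.41 to 0.62).

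Itgb5, a partner of alpha v that binds vitronectin, had 429.7 and 522 CPM in FBS, 599.8 and 587 in MS−, and 568 and 629.7 in MS+. Both rat sera lay above FBS without overlap, and the rat sera overlapped each other. The log2 difference from FBS was 0.34 ± 0.12 (SE) in MS+ and 0.32 ± 0.12 in MS−. Neither passed without the block (limma adjusted p = 0.127 and 0.187), and both did with it (0.00895 and 0.0148). Over the alternatives the adjusted p ran from 0.00895 to 0.424 and from 0.0148 to 0.572. The span of Itgb5, introns included, overlaps Muc13 on the same strand. Reads in a shared exon would not have been counted, but whether exons overlap could not be read here.

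Itgb8, which with alpha v binds latent TGF beta, had 5 to 22 reads per library, and Itgb4, the laminin-binding chain of epithelia, had 4 to 17. Both stayed within 0.734 to 3.65 CPM and their settings overlapped, apart from Itgb4 in MS+, where 1.08 and 0.734 CPM lay below the other settings. Itgb2, the beta chain shared by leukocyte integrins, had no read, and Itgb6 and Itgb7 had at most 2 in any library. Itgav and Itgb3 had no row under these symbols and were not analysed here. The same held for Itga2, Itga3, Itga6 and Itga9, so the integrins were not covered in full.

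Cadherins with reads in each library were Cdh13, Cdh11, Cdh3 and Cdh15, out of 19. Cdh11 had 397 and 763 CPM in FBS, 374 and 668 in MS−, and 520.0 and 817 in MS+. In each serum rat 2 was above rat 1, by 0.94, 0.84 and 0.65 on the log2 scale, and this distance exceeded those between sera. Without the block no contrast of Cdh11 passed (limma adjusted p = 0.716 for MS+ against MS− and 0.732 against FBS).

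Within each rat, Cdh11 was higher in MS+ than in MS−, by 0.48 and 0.29 (log2), and higher than in FBS, by 0.39 and 0.10. With the block the first contrast passed at 0.0103 and the second at 0.0446 (limma adjusted p; range over alternatives 0.0089 to 0.998 and 0.0446 to 0.938). In the fit without the block, the first was -0.036 without the MS− library of rat 1 and the second -0.23 without the FBS library of rat 1. MS− minus FBS was -0.14 and did not pass either way.

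Cdh13, T-cadherin, which is held in the membrane by a lipid anchor and lacks a tail for catenins, had 788 and 801 CPM in FBS, 789 and 777 in MS−, and 917 and 823 in MS+. Both MS+ libraries lay above the other 4, by little: the log2 difference from MS− was 0.15 (95% interval -0.09 to 0.38). It did not pass in any alternative. Cdh3, P-cadherin of epithelia, had 8.68 and 3.81 CPM in FBS, 8.23 and 2.35 in MS−, and 7.57 and 4.04 in MS+, so rat 1 exceeded rat 2 in each serum.

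Cdh15, M-cadherin of muscle precursor cells, had 3.11 and 3.81 CPM in FBS (19 and 23 reads), 1.28 and 0.542 CPM in MS− (7 and 3 reads), and 2.70 and 1.10 CPM in MS+ (15 and 6 reads). FBS lay above both rat sera, and the rat sera overlapped. MS− minus FBS was -1.25 ± 0.36 (log2, SE), with a limma adjusted p of 0.112 and of 0.00853 with the block (range 0.00853 to 0.389). Beside it, Myod1, the regulator of muscle fate, had 5.40 and 0.663 CPM in FBS, 0.549 and 0.181 in MS−, and 0.541 and 0.734 in MS+. Des, desmin, was also highest in FBS in both rats, at 2.13 and 1.49 CPM (13 and 9 reads), against 0.183 and 0.904 in MS− (1 and 5 reads) and 0.180 and 0.184 in MS+ (1 read each). Pax7, of muscle stem cells, was at 0 in every library, and Myog, of differentiating muscle, had at most 1 read. The skeletal muscle list (6 genes) summed to 931 to 1121 CPM in FBS, 767 to 914 in MS− and 1027.6 to 1201 in MS+, nearly all from Acta1, skeletal actin. The part of muscle precursor cells in the Cdh15 values was not tested.

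Cdh2, N-cadherin, had 6, 3 and 3 reads in the FBS, MS− and MS+ libraries of rat 1 and none in those of rat 2. These counts were under the filter and were not tested. Cdh1, the cadherin of epithelia, and Cdh5, that of endothelium, had no read in any library, as had Cdh7, Cdh9, Cdh16, Cdh17 and Cdh19. Cdh23 reached 3 reads in some libraries, and Cdh6, Cdh8, Cdh10, Cdh20, Cdh22 and Cdh26 had at most 2.

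Between MS+ and FBS, 3 of the 42 members differed by at least 1 on the log2 scale, against 558 of 9820 features. Of these 3 members, 2 were non-clustered protocadherins, Pcdh18 and Pcdh20. Pcdh18 had 17.5 and 36.6 CPM in FBS (107 and 221 reads), 19.2 and 28.6 in MS− (105 and 158 reads), and 8.11 and 9.91 in MS+ (45 and 54 reads). MS+ lay below both other settings in either rat, and FBS and MS− overlapped. Pcdh18 is a delta-2 protocadherin, a group that is best known from the nervous system.

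The log2 difference of Pcdh18 was -1.41 ± 0.35 (SE) from FBS and -1.29 ± 0.35 from MS−. The means in FBS and MS− were 3.01 and 2.65 times that in MS+. Without the block neither passed (limma adjusted p = 0.0525 and 0.196), and with it both did (3.43e-05 and 0.000415). For MS+ against FBS the adjusted p ran from 9.6e-06 to 0.219 over the alternatives, and was 0.0441 without the FBS library of rat 1. For MS+ against MS− it ran from 0.000266 to 0.532. MS− minus FBS was -0.11 (95% interval -0.94 to 0.72).

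Pcdh20, of the same non-clustered kind, had 21.8 and 51.6 CPM in FBS, 54.1 and 103 in MS−, and 53.0 and 106 in MS+. MS+ was above FBS by 1.25 in rat 1 and 1.02 in rat 2 (log2), and MS− by 1.28 and 0.98, while the cells of rat 2 exceeded those of rat 1 in each serum. The lowest rat serum value, 53.0 CPM, was close to the FBS value of rat 2, 51.6 CPM. The log2 difference from FBS was 1.13 ± 0.50 (SE) in MS+ and 1.13 ± 0.50 in MS−, with the same direction in 2 of 2 rats. It passed with the block (limma adjusted p = 2.26e-06 and 2.4e-06) and not without it (0.195 and 0.254), with ranges of 7.99e-07 to 0.589 and 1.2e-06 to 0.703. The rat sera did not separate from each other within either rat, at 54.1 and 53.0 CPM in rat 1 and 103 and 106 CPM in rat 2 (MS− and MS+). The fit without the block, whose spread includes the distance between the rats, gave 0.01 (95% interval -1.17 to 1.18).

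Pcdh7 had 54.5 and 109.9 CPM in FBS, 72.4 and 122 in MS−, and 92.1 and 113 in MS+. The settings overlapped, and rat 2 was above rat 1 in each, with a distance of 1.00 in FBS, 0.75 in MS− and 0.30 in MS+ (log2). MS+ minus FBS was 0.39 (limma adjusted p = 0.52, and 0.0312 with the block; range 0.0312 to 0.882), but was 0.75 in rat 1 and 0.05 in rat 2, and without the FBS library of rat 1 it was -0.10 in the fit without the block. Without that library FBS was left with rat 2 alone, so the value includes the distance between the rats. Pcdh19, known from brain, had 4 to 15 reads per library. Pcdh9 reached 3 reads in some libraries, Pcdh12 had at most 2, and Pcdh8 and Pcdh17 had none.

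Clustered protocadherins were low apart from 1 gene. All 40 lie on rat chromosome 18 in build rn4, the alpha cluster (15 members) within chr18:29661560-29928031, the beta cluster (11) within chr18:30104783-30325381 and the gamma cluster (14) within chr18:30568805-30754207. The spans of all alpha and gamma members overlap another symbol, mostly their neighbours through the shared last exons. Reads in those exons would not have been assigned to a single member, so these rows mostly reflect the first exons and are uncertain. None of the 11 beta members, which are single-exon genes, overlaps another symbol.

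Pcdhgc3, the gamma member that is also known from non-neural cells, had 263 and 218 CPM in FBS, 303 and 285 in MS−, and 251 and 178 in MS+. MS− lay above both other settings, which overlapped. The log2 difference was -0.48 ± 0.17 (SE) for MS+ minus MS− and 0.30 ± 0.17 for MS− minus FBS. Neither passed without the block (limma adjusted p = 0.283 and 0.389), and both did with it (0.00473 and 0.037; ranges 0.00473 to 0.633 and 0.037 to 0.714).

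All other clustered members stayed at or below 19.6 CPM. Pcdhga7 had 10.8 to 19.6 CPM and Pcdhga2 9.33 to 15.6 CPM, and their settings overlapped. Pcdhga5 and Pcdhac2 were examined after their values were seen. Pcdhga5 had 3.77 and 2.49 CPM in FBS, 1.83 and 0.723 in MS−, and 2.88 and 0.551 in MS+. It passed the filter only through FBS, where it was high, so its difference from FBS is a description and its blocked p no support for one. MS− lay below FBS by 0.88 ± 0.48 (log2, SE; limma adjusted p = 0.355, and 0.0452 with the block; range 0.0452 to 0.725).

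Pcdhac2 had 0.982 and 2.32 CPM in FBS (6 and 14 reads), 4.21 and 2.17 in MS− (23 and 12 reads), and 1.62 and 0.367 in MS+ (9 and 2 reads). It passed the filter only through MS−, where it was high, so the values that follow are a description. MS+ lay below MS− without overlap, by 1.10 ± 0.44 on the log2 scale (SE), and the limma adjusted p was 0.32, and 0.0651 with the block. The 23 tested clustered members had a median log2 difference of -0.13 for MS+ minus MS−, where 16 of 23 were below 0, against 5008 of 9820 features. The medians were -0.10 for MS+ minus FBS and 0.12 for MS− minus FBS. In no comparison did limma call a clustered member without the block, nor did edgeR, limma-voom or DESeq2, while 2 had an unadjusted p under 0.05 between MS+ and MS− (14.7% of all features) and 0 did in either comparison with FBS (27.5% in MS+ against FBS, 21.1% in MS− against FBS).

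Differences between the cells of the rats recurred across sera for many members. Rat 2 and rat 1 differed in the same direction in all 3 settings for 24 of the 42 members (57.1%), against 42.4% of all features. Rat 2 was above rat 1 for 8 of them (19.0%, against 21.4% of all features). They were Cdh11, Itga7, Pcdh7, Pcdh18, Pcdh20 and the clustered Pcdhb21, Pcdhga2 and Pcdhgb8. Rat 1 was above rat 2 for 16 (38.1%, against 21.1% of all features), of which 12 were clustered protocadherins and the others Itga4, Itga11, Itgb1 and Cdh3. Since these libraries came from 1 culture source per rat, and the rows of the alpha and gamma clusters overlap, these shares are a description without a test.

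Rat 1 exceeded rat 2 by 2-fold or more in each serum for 2 members, Pcdha5 and Pcdhb3 (4.76%, against 0.326% of all features in this direction). Pcdha5 had 4.58, 7.87 and 3.60 CPM in the FBS, MS− and MS+ libraries of rat 1 and 0.497, 0.904 and 1.10 in those of rat 2. Pcdhb3 had 5.40, 5.12 and 4.32 CPM in rat 1 and 1.99, 1.63 and 1.28 in rat 2. Both were higher in rat 1 throughout, at 3 to 43 reads. Summed over the alpha cluster, rat 1 had 23.6, 35.5 and 26.3 CPM and rat 2 had 13.1, 14.5 and 9.18. Of the 15 alpha members, including those under the filter, 6 were higher in rat 1 in each serum and 0 in rat 2. Among all tested features these shares were 21.1% and 21.4%, and the counts are a description.

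For the beta cluster the sums were 17.7, 16.3 and 18.7 CPM in rat 1 and 13.1, 16.3 and 15.4 in rat 2. Of the 11 beta members, again including those under the filter, 2 were higher in rat 1 throughout and 4 in rat 2 (21.1% and 21.4% of all tested features). The gamma cluster without Pcdhgc3 summed to 82.2, 81.4 and 75.1 CPM in rat 1 and 72.5, 63.8 and 64.2 in rat 2. The alpha cluster thus separated the rats without overlap, as did the gamma cluster without Pcdhgc3, whereas the MS− sums of the beta cluster were nearly equal.

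**Figure D4:**
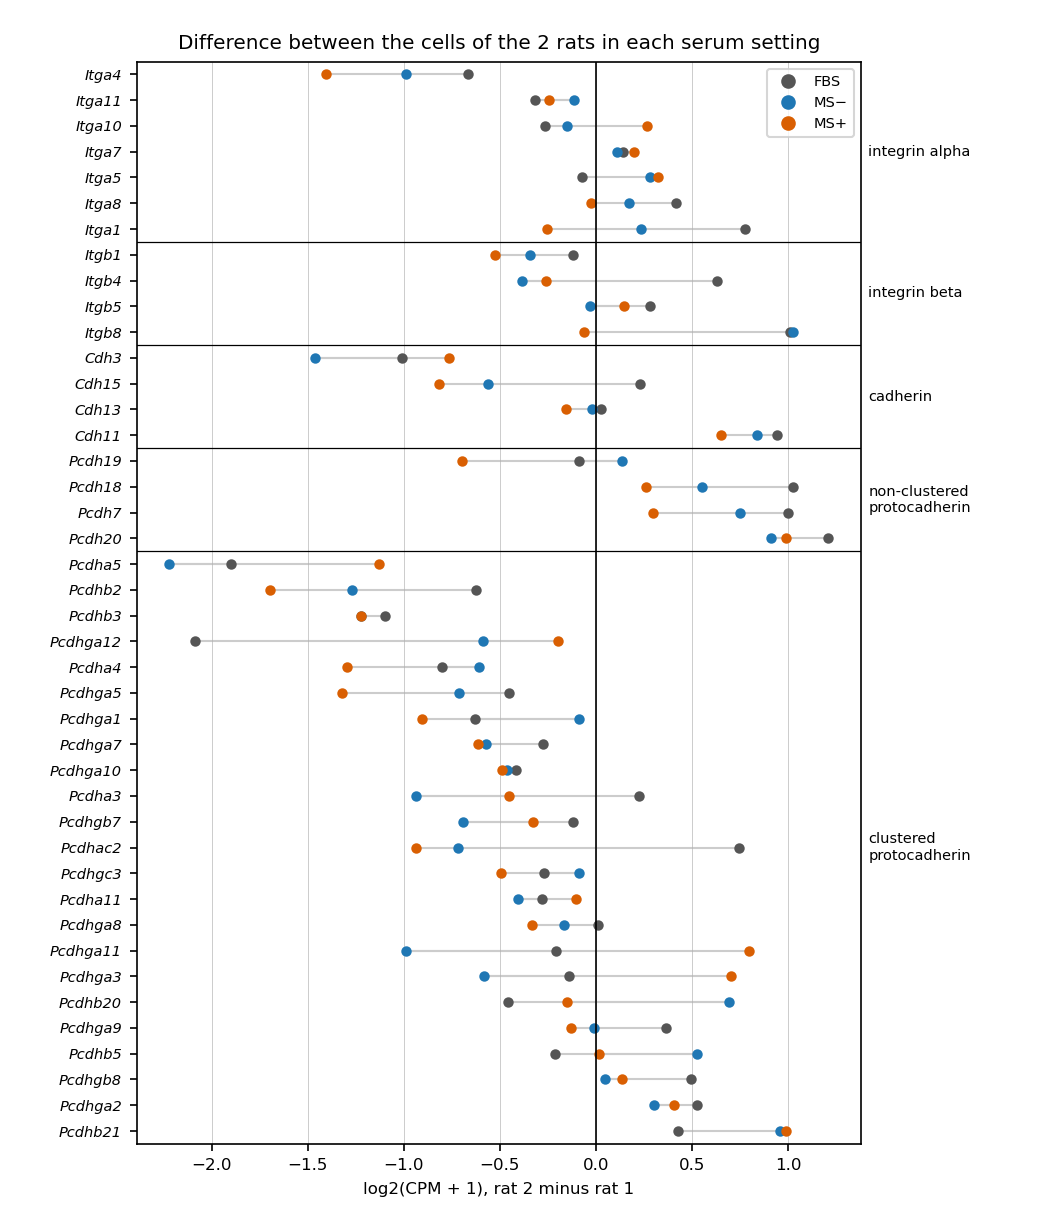
Level in rat 2 minus level in rat 1 for the 42 tested members in each serum, on the log2(CPM + 1) scale, with points coloured by serum and joined by a line, and members sorted by their mean within each family. Points on the left are higher in rat 1. Pcdha5 and Pcdhb3 lie beyond -1 in all 3 sera, and Cdh11, Pcdh7, Pcdh18 and Pcdh20 lie right of 0 in all 3.

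The proteins that tie these receptors to the cytoskeleton, and their ligands, were counted in lists chosen with earlier results of these data known. Of 25 tested genes of the integrin tail and focal adhesions (30 in the table), Tns1 rose and Parvb fell in MS+ relative to FBS (9.61% of all features called), and Tns1 rose in MS− relative to FBS (4.81%). Tns1, tensin 1, which binds the integrin beta tail, had 612 and 714 CPM in FBS, 1283 and 1385 in MS−, and 1437 and 1248 in MS+ (1.02 ± 0.13 on the log2 scale for MS+ minus FBS, SE, limma adjusted p = 0.00813). Parvb, beta-parvin, a partner of integrin-linked kinase, had 47.8 and 39.5 CPM in FBS, 39.9 and 32.4 in MS−, and 21.6 and 16.7 in MS+ (-1.15 ± 0.18, limma adjusted p = 0.0151). Both sera from rats were thus above FBS for Tns1, and MS+ was below the other settings for Parvb. Parvb in MS+ minus MS− was -0.88 ± 0.18 (log2, SE), which did not pass without the block (limma adjusted p = 0.138) and did with it (0.000448). With the block the list had 3 higher and 5 lower in MS+ against FBS (28.2% of all features in either direction), 2 higher and 1 lower in MS− against FBS (20.5%), and 1 higher and 5 lower in MS+ against MS− (10.1%). In the last comparison limma called 0 of 25 without the block, edgeR and limma-voom 0 and DESeq2 1, and 6 had an unadjusted p under 0.05 (14.7% of all features). Talin (Tln1), which activates integrins, stayed between 1532 and 1834 CPM.

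Of the catenins, 5 were tested (6 in the table): Ctnnd1, Ctnnb1, Ctnna1, Jup and Arvcf. Limma, edgeR, limma-voom and DESeq2 called 0 in each comparison without the block, and 2, 0 and 1 had an unadjusted p under 0.05 in MS+ against FBS, MS− against FBS and MS+ against MS− (27.5%, 21.1% and 14.7% of all features). With the block, 2 of 5 were lower in MS+ than in FBS (28.2% of all features in either direction), 1 was lower than in MS− (10.1%), and limma called 0 in MS− against FBS (20.5%). Beta-catenin (Ctnnb1), the link between cadherins and alpha-catenin, ranged from 299.5 to 325 CPM, and p120-catenin (Ctnnd1) from 345 to 400.0 CPM.

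Of 10 tested integrin ligands other than collagens (16 in the table), Lama5 rose in both rat sera relative to FBS and no other did (9.61% and 4.81% of all features called in MS+ and MS−). Lama5, the laminin alpha 5 chain of basement membranes, had 187 and 214 CPM in FBS, 370.4 and 383 in MS−, and 410.2 and 423 in MS+. The settings did not overlap, in the same order as for Itga8, and the log2 difference from FBS was 1.06 ± 0.10 (SE) in MS+ and 0.91 ± 0.10 in MS− (limma adjusted p = 0.00438 and 0.00538). With the block 4 ligands were higher in MS+ than in FBS (28.2% of all features in either direction), 2 higher in MS− than in FBS (20.5%), and 1 higher and 1 lower in MS+ than in MS− (10.1%). Of 6 tested genes of the wider cadherin superfamily (15 in the table), Celsr3, a planar polarity cadherin, rose between FBS (0.491 and 2.16 CPM) and MS+ (15.0 and 22.0 CPM), with 2.74 and 4.34 CPM in MS−. Its log2 difference was 3.14 ± 0.40 (SE, limma adjusted p = 0.0084), the list's only call without the block (9.61% of all features). Both MS+ values of Celsr3 lay above both in MS−, by 2.1 ± 0.40 on the log2 scale (SE), and this did not pass in limma, edgeR or limma-voom but did in DESeq2 and with the block (limma adjusted p = 0.126, and 7.24e-05 with the block). MS− minus FBS was 1.04 ± 0.40 (limma adjusted p = 0.2, and 0.00565 with the block). With the block this list had 1 higher and 2 lower in MS+ against FBS (28.2% of all features in either direction), 1 higher and 1 lower in MS− against FBS (20.5%), and 1 higher in MS+ against MS− (10.1%).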

How the data were processed

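Poly(A)-selected RNA of 6 cultures was sequenced without stated strand use. The authors aligned the reads to the rat genome rn4 with Bowtie2 2.1.0 and counted them per transcript with HTSeq 0.5.4p3, which drops reads shared by overlapping transcripts. The deposited values are a normalized signal, namely CPM, read counts divided by TMM-scaled library sizes. Whole reads were recovered for 100% of values (tolerance 1e-06 reads) from the step between low values. Floors and read counts cover counting error only, as PCR copies carried no molecular identifiers.

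Features with 1 CPM or more in both libraries of at least 1 setting (9820) were fitted in R 4.3.3 on log2(CPM + 1) by lmFit and eBayes of limma 3.58.1 (trended prior, two-sided tests), with culture condition as the only term and all 6 libraries. Fold changes are on this scale, which understates those of low genes. The looser rule uses the cut-offs of the study's methods. The fit was also run on simulated counts with a single dispersion. Their rat effects were mostly smaller than the distances of members such as Pcdh20 and Pcdha5, so that run is no support for the calls.

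The pairing of libraries by replicate number comes from the submitters' design text and labels, which give every setting cells of the same 2 rats. The differences between the rats correlated across features by 0.62 (FBS and MS−), 0.49 (FBS and MS+) and 0.59 (MS− and MS+). The blocked value is therefore given for each named gene and each list count whose call it changed. Alternatives were edgeR 4.0.16, limma-voom and DESeq2 1.42.0 on recovered reads, 2 other scalings, another pseudocount, no filter, rows summed per symbol and each library left out. The edgeR fit with the block was added after the data were seen.

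Members, gene lists and markers were chosen with earlier results of these data known. Named were members past the adjusted rule, those past the looser rule and the blocked adjusted rule, the 3 most abundant of each family, and a set of well-known members. Others are marked as chosen after their values were seen, or account for the rest of the list. Coordinates are rn4 as deposited, written 1-based and promoters are from RefSeq (GRCr8). The 3 comparisons share libraries and are not independent.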

Additional observations from a re-analysis of the deposited data

How the results depend on the processing

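With 2 rats, counts of called members moved with the treatment of the rat. With the replicate block the adjusted rule called 4 members in MS+ against MS−, 6 in MS+ against FBS and 7 in MS− against FBS, in place of 0, 1 and 1. The edgeR fit with the block, chosen after seeing the data, gave 5, 5 and 5, and by the looser rule 4 in MS+ against FBS and 5 in MS− against FBS. In MS+ against FBS the adjusted rule called 2 with library totals, edgeR or DESeq2, the second being Pcdh18 (adjusted p = 0.0478, 0.0485 and 0.00496). DESeq2 left 1 member under the looser rule in MS+ against MS−. Leaving out 1 library at a time gave 0 to 0 members (MS+ against MS−), 0 to 2 (MS+ against FBS) and 0 to 1 (MS− against FBS) by the adjusted rule, and 1 to 2, 2 to 6 and 1 to 3 by the looser rule. For these counts the cause was not tested. Apart from the limma fit with the block, the shares of all features under the same alternatives are not given. The counts therefore cannot be read as a result about the members.

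Of 25 log2 differences of named members under 16 alternatives (400 values), 352 kept direction and side of the threshold, 32 newly passed, 2 no longer passed and 14 changed sign. No sign change was in a contrast called without the block. Some were in contrasts called only with it, namely Cdh11 in MS+ against MS− and against FBS and Pcdh7 in MS+ against FBS. In these contrasts MS+ was the higher within each rat. The fits without 1 library had no block, so their differences include the distance between the rats and are no test of the blocked calls. Under library totals MS+ minus MS− for Pcdh20 was -0.011. The other sign changes came from leaving out 1 library, where the range was -0.62 to 0.40 for Pcdh18 and -0.61 to 0.33 for Cdh11 in MS− against FBS. In MS+ against FBS it was -0.20 to 0.12 for Itga11, -0.16 to 0.37 for Itgb1, -0.23 to 0.71 for Cdh11 and -0.10 to 0.89 for Pcdh7. In MS+ against MS− it was -0.036 to 0.80 for Cdh11 and -0.49 to 0.50 for Pcdh20. Where a setting kept 1 library, its spread was taken from the other settings. Rows summed per symbol equalled the single rows, since each member has 1. Members of a few reads can show at most large changes at this depth, so a missing call does not mean an equal level.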
